A study of Mus musculus with 5 samples.

Results

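The peaks described here were the REST sites of the embryonic mouse pancreas that a single E13.5 library called and that no other library of the series called. Overlapping peaks of the 5 deposited lists (at least 1 bp shared) were joined into sites on the assembled chromosomes, and a site was kept when it held a peak of exactly 1 of the 2 E13.5 libraries and of none of the 3 E18.5 libraries. This gave 341 of 1849 sites, of which 204 were called in E13.5 A only and 137 in E13.5 B only. They are called single-library sites below. They were chosen by the peak calls, which depend on the score, so their scores are a description without a test.

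The protein REST contacts DNA through its zinc fingers at an element named RE1, and represses nearby genes, many of them neuronal, through histone-modifying partners. RE1 has a left and a right arm, and REST can also bind elements whose arms are farther apart. In the pancreas REST is found in progenitors and duct cells, and at E13.5 also in mesenchymal cells. Many of its target genes, including those of regulated secretion, are active in islet cells.

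REST was immunoprecipitated with the monoclonal antibody 12C11 for ChIP-seq, from whole pancreas of untreated wild-type embryos on a mixed background with C57BL/6, at E13.5 or at E18.5, and each library was made from pooled pancreases. Whole pancreas holds epithelial, mesenchymal, endothelial and nerve cells, and a peak does not say in which of them REST was bound. The E13.5 lists held 1400 and 1333 peaks and the E18.5 lists 541, 417 and 226, after entries that overlapped within a list were merged. Sequencing depth is unknown, so absence from a list is no measure of absent binding, and library letters do not pair the stages.

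Sequences are shown for chosen single-library sites with an RE1 or both of its arms, so they do not stand for the whole category. Of all members 47.5% had a whole RE1 and 14.1% had neither the element nor an arm. The consensus RE1 has the left arm TTCAGCACC, 2 middle bases, the right arm GGACAGCGC and 1 last base, and a mismatch at any of its bases was counted. The members with the fewest mismatches to this 21-bp element are shown first, because they are the best elements that a single library called. Capitals mark the element, lower case the 20 bases on each side, and positions are mm9.
Stmn2 (chr3:8508210-8508270, plus strand): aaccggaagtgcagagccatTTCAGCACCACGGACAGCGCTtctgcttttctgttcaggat
Npas4 (chr19:4992532-4992592, minus strand): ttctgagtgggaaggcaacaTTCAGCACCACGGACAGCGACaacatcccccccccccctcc
Cacng7 (chr7:3328487-3328547, minus strand): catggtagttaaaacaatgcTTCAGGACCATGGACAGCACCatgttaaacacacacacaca
Pldi (chr10:60405986-60406046, plus strand): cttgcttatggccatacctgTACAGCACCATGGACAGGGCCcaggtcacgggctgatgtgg
Olfr1336 (chr7:6409266-6409326, plus strand): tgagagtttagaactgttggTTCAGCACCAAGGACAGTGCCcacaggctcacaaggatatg
Car10 (chr11:93223057-93223117, minus strand): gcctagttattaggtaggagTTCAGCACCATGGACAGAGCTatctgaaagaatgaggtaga
1700069B07Rik (chr7:128745384-128745444, plus strand): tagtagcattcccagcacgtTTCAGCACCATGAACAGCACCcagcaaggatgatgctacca
Ajap1 (chr4:152804246-152804306, plus strand): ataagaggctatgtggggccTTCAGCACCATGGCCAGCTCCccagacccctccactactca
Mtap9 (chr3:82216482-82216542, minus strand): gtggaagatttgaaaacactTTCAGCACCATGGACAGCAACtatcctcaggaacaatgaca
Each of these 9 elements had 2 mismatches, and no single-library site had fewer. Of the 12 members with 2 mismatches the others lay in introns of Onecut2 and Nkain1 and upstream of Csmd1.

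A second set is shown because these members were among the 5 best-ranked of their library (Ctnnbl1 and Sgsm1) or lay within 5 kb of a neuronal gene (Celsr3, Elavl3 and Nefl). The gene given is the one with the nearest protein-coding start.
Ctnnbl1 (chr2:157489484-157489544, plus strand): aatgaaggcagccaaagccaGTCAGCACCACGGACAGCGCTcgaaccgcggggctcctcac
Sgsm1 (chr5:113721337-113721397, minus strand): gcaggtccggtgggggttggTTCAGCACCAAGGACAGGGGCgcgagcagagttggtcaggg
Celsr3 (chr9:108728229-108728289, plus strand): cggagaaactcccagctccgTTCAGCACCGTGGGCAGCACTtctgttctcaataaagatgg
Elavl3 (chr9:21858294-21858354, plus strand): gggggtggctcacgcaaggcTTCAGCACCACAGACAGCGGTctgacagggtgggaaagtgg
Nefl (chr14:68698524-68698584, plus strand): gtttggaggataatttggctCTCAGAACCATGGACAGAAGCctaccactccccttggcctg
Ctnnbl1 and Sgsm1 had 3 mismatches, Celsr3 and Elavl3 had 4, and Nefl had 5, the most that was still counted as an RE1.

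A further set shows members with no whole RE1 whose arm cores, TCAGCACC and GGACAGC, matched exactly at another spacing. Capitals mark the cores, with 15 bases on each side.
Col8a1 (chr16:57845714-57845766, minus strand): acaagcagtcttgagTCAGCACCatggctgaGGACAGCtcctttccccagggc
Gm6327 (chr16:12608560-12608612, minus strand): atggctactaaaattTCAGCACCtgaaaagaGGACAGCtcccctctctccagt
Cyp4f15 (chr17:32811051-32811102, minus strand): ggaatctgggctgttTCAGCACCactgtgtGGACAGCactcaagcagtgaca
Rbfox3 (chr11:118402136-118402180, minus strand): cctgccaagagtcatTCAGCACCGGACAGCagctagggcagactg
Fam46d (chrX:105053654-105053709, plus strand): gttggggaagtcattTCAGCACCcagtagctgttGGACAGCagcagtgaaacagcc
Mad1l1 (chr5:140531559-140531610, plus strand): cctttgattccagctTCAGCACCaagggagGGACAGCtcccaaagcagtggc
Adcyap1 (chr17:93597738-93597790, plus strand): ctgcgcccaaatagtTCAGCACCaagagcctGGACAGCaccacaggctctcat
The cores were separated by 8 bases at Col8a1, Gm6327 and Adcyap1, by 7 at Cyp4f15 and Mad1l1 and by 11 at Fam46d. At Rbfox3 they adjoined with 0 bases between them. Adcyap1 was chosen after its values were seen.

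The sites were weak by the score that the authors gave each peak. Its unit is unknown, so scores were compared only within a library, as a rank from 0 to 100 with 100 the highest. In E13.5 A the 204 single-library peaks had a median score of 8 (lowest 4, highest 17), against 12 for peaks of sites called in both E13.5 libraries and at no E18.5 library, and 23 for peaks of sites called at both stages. In E13.5 B the 137 peaks had a median of 11 (lowest 5, highest 23), against 15 and 27. Their median ranks were 15.4 and 18, and the highest were 62.6 and 68.0. The working name of weak sites therefore held for most members, with a tail that reached past the middle of each list. They were also short. Median length was 116 bp in E13.5 A (154 and 189 bp for the other kinds) and 343 bp in E13.5 B (460 and 522 bp).

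Single-library peaks made up 46.5% of the lowest quintile of E13.5 A, where quintiles were cut on rank, and 19.9%, 5.88%, 0.356% and 0% of the next. In E13.5 B the shares were 29.6%, 15.2%, 3.95%, 1.37% and 0%. Even in the lowest quintile of each list the other E13.5 library called more than 50% of the peaks.

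**Figure D1:**
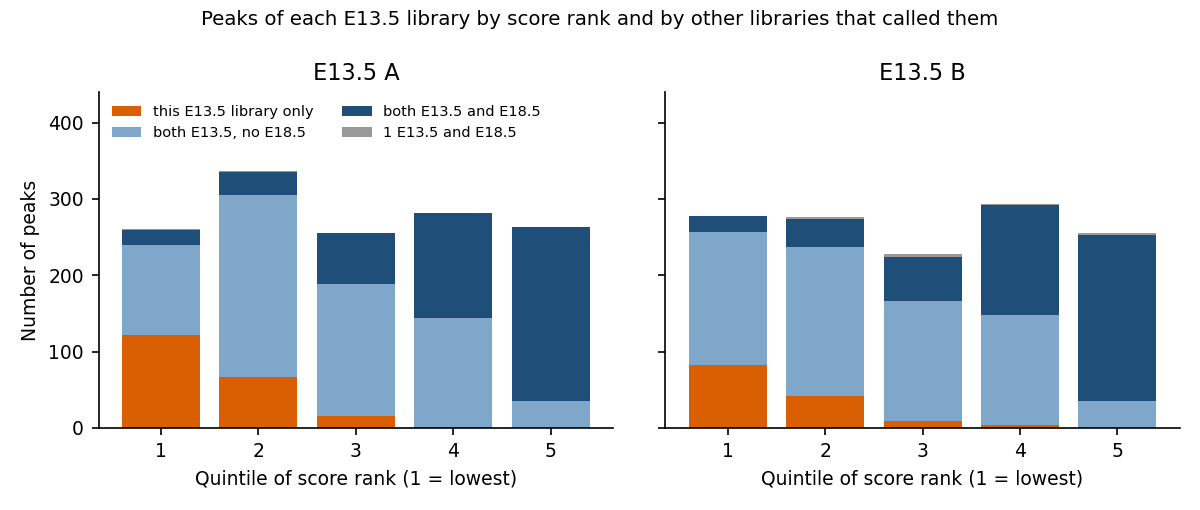
Number of peaks in each quintile of score rank (1 lowest, 5 highest) in the 2 E13.5 libraries, with colours for the other libraries that called the same site. Single-library peaks (orange) fall from 121 of 260 to 0 of 263 in E13.5 A and from 82 of 277 to 0 of 255 in E13.5 B.

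By position, the members closest to being shared lay beside a peak of the other library. The site 3656 bp upstream of Hic1, a tumour suppressor gene encoding a transcriptional repressor, had score 9 in E13.5 A (chr11:74986612-74986741) and was 13 bp from a peak of E13.5 B. The site 94478 bp from 4930569F06Rik was 547 bp away and the one 268 bp from the start of Sarm1, which encodes an NAD-cleaving enzyme of axon degeneration, was 874 bp away. On the other side of the rule, the shared sites with the smallest overlap were near Crmp1 (50 bp, scores 8 and 12), Qtrt1 (62 bp, scores 6 and 9) and Shank2 (71 bp, scores 7 and 10). Most members had no such peak nearby. Signal below the calling limit at a member's own position in the other library is unknown. The median distance from a member to the nearest peak of the other E13.5 library was 365 kb, and 4 of 341 members (1.17%) lay within 1000 bp of one.

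The RE1 was next searched on both strands in a 500-bp window on the centre of the best-ranked E13.5 peak of each site, with up to 5 mismatches. An RE1 was present in 162 of 341 single-library sites, or 47.5% (exact 95% binomial interval 42.1 to 53.0), beside 54.6% of all 1849 sites. In windows 10 kb to either side of the members it was present in 2 of 682 (0.293%), and in those beside all sites in 0.324%. Intervals cover counting error over sites only. At sites with a peak in both E13.5 libraries and no E18.5 library the share was 493 of 706, or 69.8% (66.3 to 73.2), and among those also called at E18.5 it was 350 of 477, or 73.4% (69.2 to 77.3). The single-library share was lower than both, by 22.3 percentage points (95% Newcombe interval 16 to 28.5 points) and by 25.9 points (19.1 to 32.3). The odds ratios were 0.391 and 0.328, with adjusted p = 5.93e-12 and 1.11e-13 (two-sided Fisher exact tests, Benjamini-Hochberg over 4 comparisons of RE1 shares). Each list was also cut to peaks at or above the 20th percentile of its score before joining. The first difference (single-library minus shared) was then -13.5 points (adjusted p = 0.000193, Fisher exact test). A shared site that lost its weaker peak to this cut counts there as single-library, so the groups differ from those above. Sites are not replicates of a stage, so these tests describe the present libraries.

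The single-library sites of E13.5 stood far from the sites that only E18.5 libraries called, nearly all of which (311 of 314) also came from a single library. An RE1 was found in 1 of those 314 sites, or 0.318% (0.00806 to 1.76), 47.2 points below the E13.5 members (odds ratio 283, adjusted p = 1.12e-54, Fisher exact test). The best match in most E18.5-only windows had 9 or 10 mismatches. Of the 341 members, 38 had a best match of 9 mismatches and 8 one of 10.

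**Figure D2:**
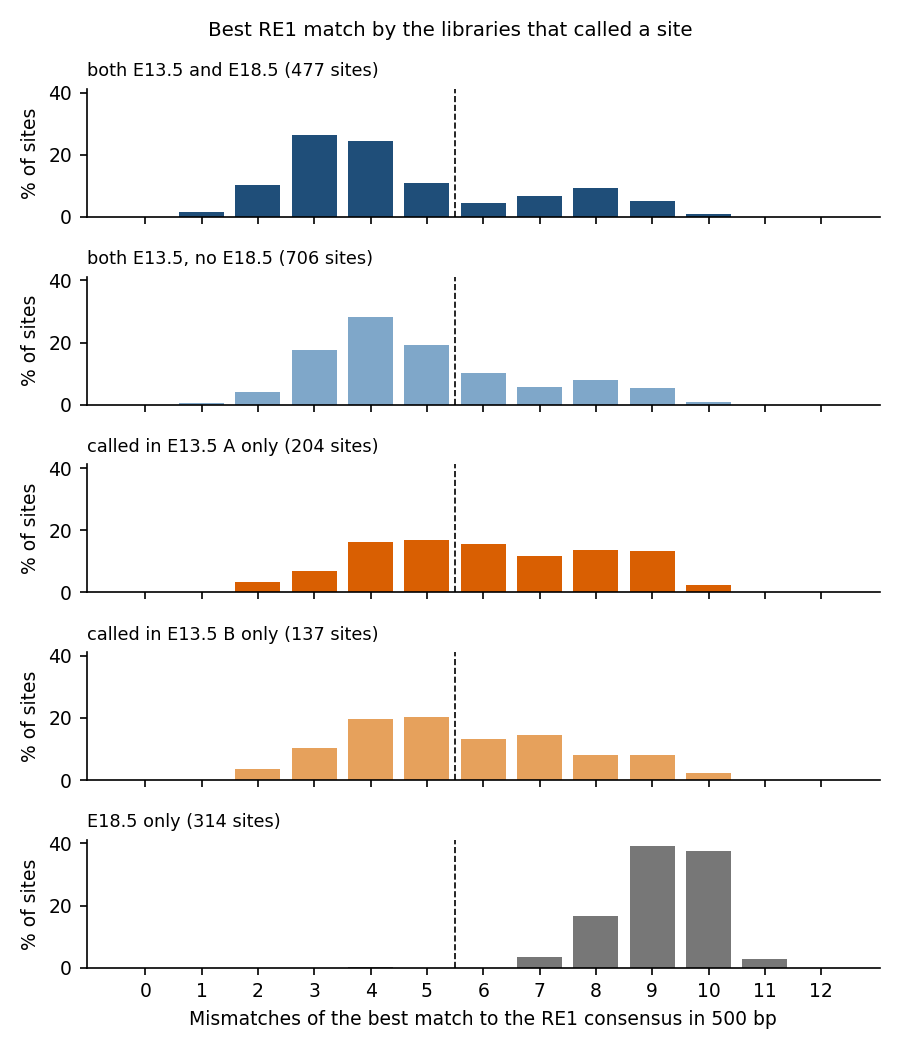
Percent of sites by the mismatches of their best match to the RE1 consensus in 500 bp, one panel for each pattern of calls. The dashed line marks the limit of 5 mismatches, which 43.1% of the E13.5 A sites, 54.0% of the E13.5 B sites and 0.318% of the E18.5-only sites met.

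Sites added by E13.5 A held an RE1 in 88 of 204 cases (43.1%, 36.2 to 50.2) and those added by E13.5 B in 74 of 137 (54.0%, 45.3 to 62.6). The difference of 10.9 points missed the threshold (odds ratio 0.646, adjusted p = 0.0599, Fisher exact test). Its 95% Newcombe interval ran from 0.0768 to 21.3 points, and it passed in 4 of 9 alternatives, including without the library E18.5 A (adjusted p = 0.0483, Fisher exact test) or E18.5 B (0.0376). In 200-bp windows it was 5.04 points (adjusted p = 0.376, Fisher exact test), with at most 4 mismatches 7.11 points and with at most 6 mismatches 8.33 points.

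Because members had low scores, the RE1 share was also compared within quintiles of rank, with the window on the library's own peak. Rank still varied inside a quintile. Scores in the lowest quintile ran from 4 to 8 in E13.5 A and from 5 to 11 in E13.5 B. In E13.5 A the single-library peaks held an RE1 in 43.8% of the lowest quintile and 43.3% and 33.3% of the next, and the peaks that E13.5 B also called in 66.7%, 68.7% and 70.4%. In E13.5 A the common odds ratio over quintiles was 0.355 (95% interval 0.246 to 0.511, adjusted p = 1.12e-08, exact conditional test, Benjamini-Hochberg over the 2 libraries). In E13.5 B the single-library peaks held it in 45.1%, 66.7% and 77.8%, and the shared peaks in 61.0%, 71.1% and 70.7%. The odds ratio there was 0.637 (0.424 to 0.960, adjusted p = 0.0252, exact conditional test). The call in E13.5 B was lost with 6 mismatches allowed (0.657, p = 0.0567, exact conditional test). It was also lost when lists were cut at the 20th percentile of score before joining (0.976, p = 0.915, exact conditional test). The cut lists gave 136 single-library and 719 shared peaks of E13.5 B. Those 136 include peaks that counted as shared before their partner was removed. The difference between the 2 libraries' odds ratios was not tested.

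**Figure D3:**
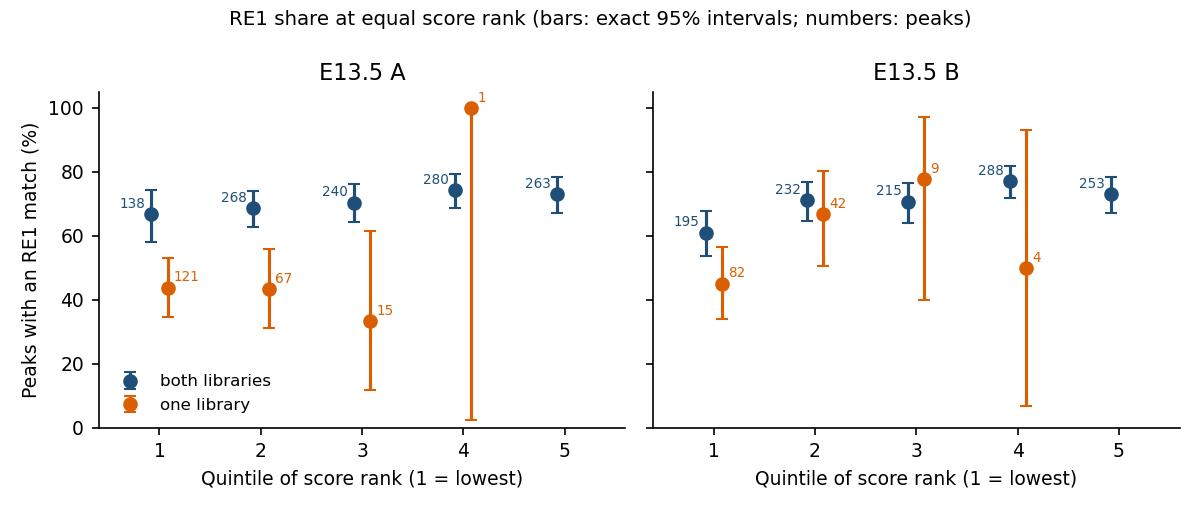
Percent of peaks with an RE1 in each quintile of score rank, for peaks called in a single E13.5 library (orange) and in both (blue), with exact 95% binomial intervals and the number of peaks beside each point. In E13.5 A the orange points of the first 3 quintiles sit at 33.3% to 43.8% and the blue ones at 66.7% to 70.4%, while in E13.5 B they are 45.1% and 61.0% in quintile 1, with overlapping intervals, and the orange points of quintiles 3 and 4 rest on 9 and 4 peaks.

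Where a whole element was present it had slightly more mismatches than at the shared sites. This comparison was not repeated within quintiles of rank or under an alternative. The median rank of the best E13.5 peak was 15.4 over all members and 49.7 over those shared sites. The 162 matched members had 4.06 ± 0.924 mismatches (SD over sites), against 3.88 ± 0.904 in the 493 matched sites of both E13.5 libraries and no E18.5 library (difference 0.177, two-sided permutation test with 100000 resamples, adjusted p = 0.0483 over 3 comparisons of elements). Members with 2, 3, 4 and 5 mismatches numbered 12, 28, 60 and 62.

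The place of the element in the peak was compared within each library, in a comparison that was not planned. In E13.5 A the RE1 lay a median of 12 bp from the peak centre in single-library peaks, and all 88 were within 50 bp. Its shared peaks had a median of 10.5 bp (means 13 ± 9.92 and 14.0 ± 14.7 bp, adjusted p = 0.551, permutation test). In E13.5 B the median was 35.5 bp and 45 of 74 (60.8%) were within 50 bp, while its shared peaks had a median of 14.5 bp and 86.2% within 50 bp (means 44.1 ± 31.0 and 24.1 ± 28.0 bp, adjusted p = 2e-05, permutation test, the smallest that 100000 resamples over 2 comparisons can give). Among peaks of rank below 40, a limit added after the data were seen, the E13.5 B medians were 38.5 and 24.5 bp and the difference missed the threshold (permutation p = 0.0575, 65 and 284 peaks).

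**Figure D4:**
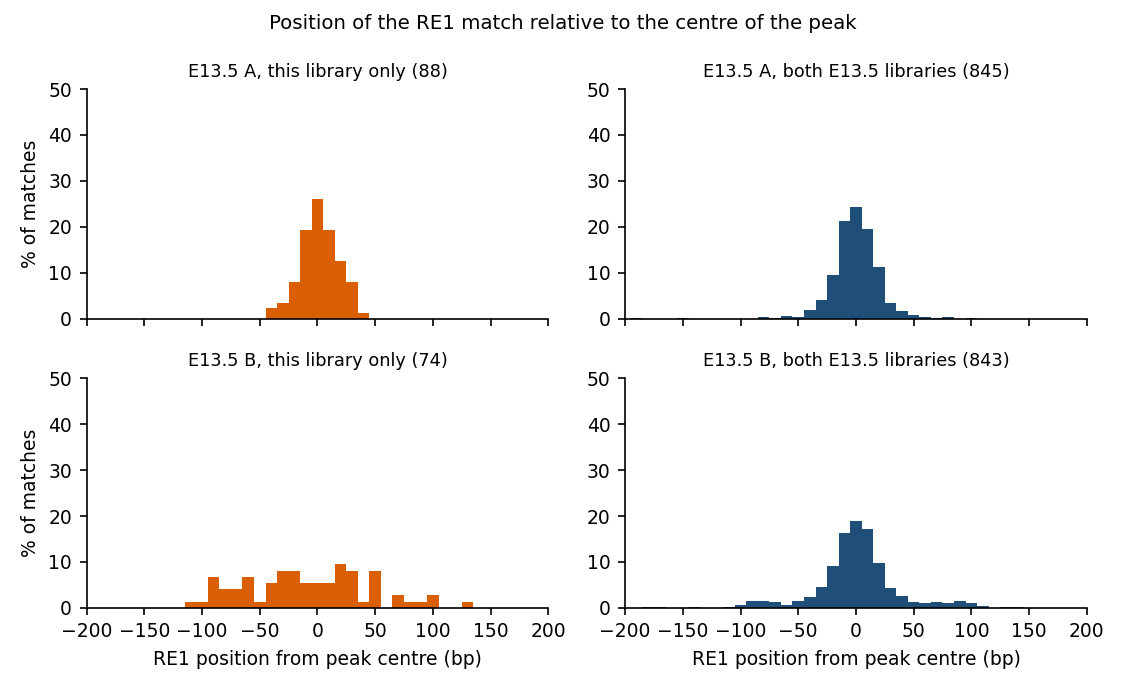
Position of the RE1 match relative to the peak centre in bp (10-bp bins, percent of matches) for single-library peaks (orange) and peaks of both E13.5 libraries (blue). All 88 single-library matches of E13.5 A lie within 50 bp of the centre, and 45 of the 74 of E13.5 B do. The median length of single-library peaks is 116 bp in E13.5 A and 343 bp in E13.5 B, so the libraries are not compared with each other.

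The 179 members without a whole RE1 were then searched for its arms, each with at most 1 mismatch. Arms on the same strand with 7 to 11 bases between them, the split form, were present in 17 of 179 (9.5%), against 48 of 213 (22.5%) such sites of both E13.5 libraries and no E18.5 library (odds ratio 0.361, adjusted p = 0.00177, Fisher exact test). In the windows 10 kb downstream of all sites 2 of 1849 (0.108%) held the split form. A single arm or unpaired arms were present in 114 further members. Any arm was found in 131 of the 179 (73.2%), against 174 of 213 (81.7%, adjusted p = 0.0509, Fisher exact test). Neither a whole RE1 nor an arm was found in 48 of 341 members, or 14.1% (10.6 to 18.2). That share was 5.52% in sites of both E13.5 libraries and no E18.5 library, 86.0% in E18.5-only sites and 82.6% in the windows 10 kb downstream.

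Paired arms in members mostly fell into 2 ranges of spacing. Of the pairs, 31 had the 2 bases of the whole element between the arms, and 3, 7, 3 and 4 had 7, 8, 9 and 10 bases. The 8 members whose cores matched exactly at another spacing were all called by E13.5 A, with scores of 6 to 14. The split form as counted above, which allows mismatches in the arms, was found in members of both libraries. It was present in 11 of 204 sites of E13.5 A only (5.39%) and 6 of 137 of E13.5 B only (4.38%). The difference between these shares was not tested. The element upstream of Adcyap1, the gene of the neuropeptide PACAP, was 967 bp from the start in a peak of score 7.

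**Figure D5:**
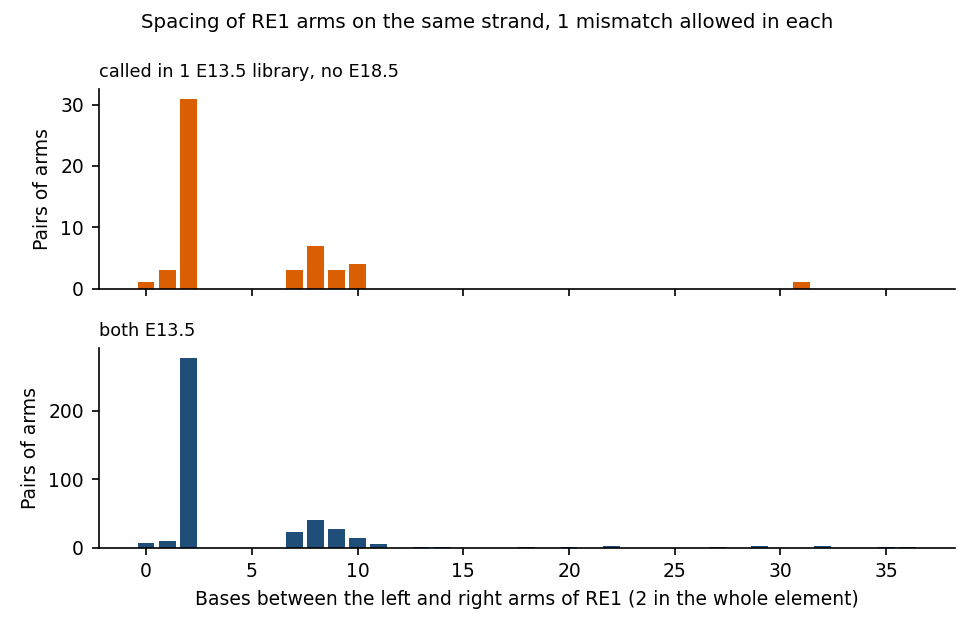
Number of pairs of RE1 arms on the same strand by the bases between them, in single-library sites (orange) and in sites of both E13.5 libraries (blue, own scale). Members had 31 pairs at 2 bases and 3, 7, 3 and 4 pairs at 7, 8, 9 and 10 bases. Shared sites had 277 pairs at 2 bases and 23, 40, 28 and 15 at the same 4 wider spacings.

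Members without any arm were also looked at for short motifs of other factors, on both strands. The GC box GGGCGG was in 3 of 48 (6.25%), in 10 of 52 (19.2%) sites of both E13.5 libraries without an arm and in 6.38% of the windows 10 kb downstream of all sites. The AP-1 motif TGAGTCA was in 10.4%, 7.69% and 8.65% of the same 3 sets, and the CCAAT box in 64.6%, 46.2% and 53.6%. These shares were not tested. A match of letters is no evidence of a bound factor.

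Single-library sites lay mostly far from promoters. By GENCODE annotation 181 (53.1%) were intergenic, 137 (40.2%) intronic, 12 (3.52%) in coding exons and 11 (3.23%) in UTRs. Their median distance to a protein-coding start was 40.5 kb. Within 5 kb of a start lay 74 of 341, or 21.7% (17.4 to 26.5), beside 26.8% of all sites, and 163 of 706 (23.1%) of the sites of both E13.5 libraries and no E18.5 library. The difference of 1.39 points had a 95% Newcombe interval from 6.58 points lower to 4.15 points higher (p = 0.637, Fisher exact test). Sites called at both stages were within 5 kb in 44.7% of cases.

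The RE1 share of the members was near equal in both positions. It was 35 of 74 (47.3%, 35.6 to 59.3) within 5 kb of a start and 127 of 267 (47.6%, 41.4 to 53.7) farther away (odds ratio 0.989, p = 1.0, Fisher exact test). In the sites of both E13.5 libraries and no E18.5 library the shares were 55.8% (47.9 to 63.6) and 74.0% (70.1 to 77.7). GC content in the 500-bp windows was 47.9% ± 8.04 (SD over 341 sites) against 48.7% ± 7.02 over 706 (p = 0.118, permutation test with 100000 resamples). Without the library E18.5 B the difference grew from 0.761 to 1.09 points and passed (p = 0.0296, permutation test). Members within 5 kb of a start held 20 ± 16.1 CpG dinucleotides in 500 bp and the others 5.61 ± 5.54.

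Few members stood beside a shared site, and few shared sites did. A site of both E13.5 libraries lay within 10 kb of 16 members (4.69%). Of the 706 sites of both libraries and no E18.5 library, 61 (8.64%) had another site of both E13.5 libraries as near. Within 50 kb the shares were 17.6% and 21.7%. No test is given for these shares, because the rule used peak positions and neighbouring shared sites can count for each other. Members were spread over the genome, and made up 11.3% (chromosome 4) to 25.5% (chromosome 19) of the sites of each chromosome.

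At Npas4, which encodes a transcription factor induced by neuronal activity, a member and a strong site stood side by side. The member, 2618 bp upstream of the start, had score 15 in E13.5 B (rank 39.0) and an element with 2 mismatches. The strong site was 3420 bp away in an intron and was called in all 5 libraries, with scores of 65 and 110 in the E13.5 libraries and of 35, 16 and 24 in those of E18.5. Its element, shown here beside the Npas4 sequence of the first set, had 3 mismatches.
Npas4 intron (chr19:4989140-4989200, plus strand): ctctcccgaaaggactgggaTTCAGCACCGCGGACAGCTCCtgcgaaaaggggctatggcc

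The 5 best-ranked members of each library did not include the elements with the fewest mismatches. In E13.5 A the highest was 73625 bp upstream of Ctnnbl1, a spliceosome-associated protein gene, with score 17 and an RE1 of 3 mismatches. Next were sites of score 15 near Cpz, the gene of carboxypeptidase Z, and Mrps33, a mitochondrial ribosomal protein gene, each with 4 mismatches, and sites in introns of St6galnac3 and Efcab6 without a whole RE1. The Efcab6 window held the split form. In E13.5 B sites of score 23 lay in introns of Agap1 (4 mismatches), Otop3 and Rbfox3 (neither with a whole RE1), followed by one of score 20 in Sgsm1 (3 mismatches) and one of score 19, 1954 bp upstream of Klc1, a kinesin light chain gene (5 mismatches). A site near Rab37 tied with Klc1 in score and had no whole RE1, and Klc1 is listed for its fewer mismatches.

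Genes were linked to sites by a basal domain of 5 kb upstream to 1 kb downstream of the start, extended to the next basal domain by at most 1 Mb. By this rule 556 of 22219 protein-coding genes (2.5%) were assigned a single-library site, and 1517 (6.83%) a site of both E13.5 libraries. Of the 556 genes, 186 (33.5%) had a site of both libraries too and 370 had none. For 74 genes (0.333%) the start was the nearest to a member and within 5 kb, and 14 of these were also assigned a shared site. More than 1 member was assigned to 31 genes, and 16 of those drew members from both libraries. The lists of genes below were chosen with earlier results of these data known, so their counts are a description, and the endocrine, secretory and MAPK lists hold genes that the study itself named.

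Across 12 lists 24 of 206 matched genes (11.7%) had a single-library site, and 12 of the 24 had a site of both E13.5 libraries too. Neuronal genes held 9 of the 24, or 26.5% of the 34 on their list. Stmn2, Nefm, Celsr3, Npas4, Glra1, Cacna1a and Elavl3 had a shared site as well, and Nefl and Nrcam had not. Of the neuronal list 29 genes had a shared site. Stmn2, the gene of a microtubule-destabilising protein of growing axons, had its member 1302 bp upstream (score 17 in E13.5 B, rank 49.3). Celsr3, a non-classical cadherin gene, had one 394 bp upstream (score 10 in E13.5 B), and Elavl3, a neuronal RNA-binding protein gene, one 1844 bp upstream (score 11 in E13.5 A). Nefl, the neurofilament light chain gene, had one 3361 bp upstream (score 7 in E13.5 A, rank 9.14). Nrcam, a neural cell adhesion gene, had one in an intron (score 11 in E13.5 B, 5 mismatches). Over the whole list 8 of 9 assigned members carried an RE1, and the one assigned to Cacna1a, a calcium channel gene, had neither the element nor an arm. Members within 5 kb were those of 5 genes, Stmn2, Nefl, Celsr3, Npas4 and Elavl3. Those of Nefm, Cacna1a, Nrcam and Glra1 lay 63651, 74445, 96342 and 289487 bp from the start.

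Secretory granule and exocytosis genes had 7 of 31 (22.6%) with a member, but only Rab3c and Rims2 were the nearest gene within 5 kb. Pcsk2, a prohormone convertase gene, Cplx2, a complexin gene, and Cadps, a vesicle priming gene, also had a shared site. Syt1, the gene of a calcium sensor of vesicle fusion, Rab3a and Rab3c, genes of vesicle GTPases, and Rims2, an active zone scaffold gene, had single-library sites only. The Rab3c site was centred in a UTR, 13 bp from a start (score 15 in E13.5 B, rank 39.0), and the Rims2 site was in an intron 1023 bp from a start (score 8 in E13.5 B). The best RE1 matches there had 9 and 6 mismatches. Syt1 was assigned 2 sites, 1 of each library, with 6 and 7 mismatches, 244589 and 841573 bp from its start. The second lay in an exon of Nav3. The Rab3a site lay within Pde4c, 28408 bp from the Rab3a start, with 10 mismatches. Of the 9 members assigned to this list 3 carried a whole RE1, both of Pcsk2 and the one of Cplx2. The Pcsk2 members lay 338736 and 94287 bp from its start, the Cplx2 member 116912 bp and the Cadps member 292688 bp.

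Duct and progenitor genes had 3 of 14 (21.4%) with a member. Hes1, a Notch-induced repressor of endocrine fate, had one in its UTR 42 bp from the start, of score 7 in E13.5 A (rank 9.14), without a whole RE1 (7 mismatches) but with both arms in its window, not at the split spacing. Foxa2, a pioneer factor of the foregut endoderm, had one 170375 bp upstream (score 8, 5 mismatches). Onecut2, a progenitor transcription factor gene, was assigned 3 members beside 1 shared site. They had scores of 7, 6 and 6, and lay 29534 and 345 bp upstream and 11440 bp inside the gene, the last with an RE1 of 2 mismatches.

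The other lists had at most 1 gene each. Of 27 endocrine transcription factor genes, 13 had a site of both E13.5 libraries. Tph1, the gene of the rate-limiting enzyme of serotonin synthesis, was the 1 of 18 hormone and beta-cell genes (score 7, 5 mismatches), Mapk8, the gene of the kinase JNK1, the 1 of 12 MAPK genes (score 6, split arms 79629 bp from its start), and Tbp the 1 of 11 housekeeping genes (score 8, 5 mismatches, 44489 bp away). Rbfox3, the gene of the neuronal nuclear marker NeuN, was the 1 of 7 neural splicing genes, a list whose 6 microRNA entries were not matched. Its introns held a member of each library, of score 10 in E13.5 A and 23 in E13.5 B, neither with a whole RE1. Acinar (21 genes), mesenchymal (13), endothelial and blood (10) and REST cofactor genes (8) had 0. Housekeeping, mesenchymal and cofactor genes had no shared site. Because 2.5% of all protein-coding genes were assigned a member, 0 or 1 in lists this short is no result about a cell type.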

How the data were processed

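REST ChIP-seq peaks of mouse pancreas were taken from 5 deposited lists, 1 per library (2 at E13.5, 3 at E18.5). The authors aligned reads with Bowtie2 2.2.5 and called peaks with MACS2 2.1.0, and SAMtools is also named in the submitters' processing notes. The only measurement is a whole-number score per peak, deposited by the authors without a stated unit and used here to rank peaks within a library. The notes name both NCBI36 and mm9, and all peaks fit the chromosome lengths of mm9 on 20 of 20 chromosomes. Read depth is unknown. Peaks on unplaced sequence (25) were left out, and entries that overlapped within a list were merged with the highest score kept.

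Sites were annotated with GENCODE vM1. RE1 matches (at most 5 mismatches, both strands, 500 bp) were searched with pysam 0.24.0. Fisher tests were run in SciPy 1.17.1, exact conditional tests in R 4.3.3 and permutation tests in NumPy 2.4.6. The search, the joining of peaks and the permutation test were tried on simulated data, and the other tests were not. Named sites were the best-ranked 5 of each library, up to 10 with the fewest RE1 mismatches, listed genes with a member within 5 kb or with members only, the 3 closest to the rule on either side and up to 6 with exact arm cores at another spacing. The members, lists and naming rule were chosen with earlier results of these data known. The plan held no tests of element mismatches, element distance or arms. It also held none of RE1 share by promoter distance or against sites called at both stages. Alternatives changed the joining of peaks, the score and mismatch limits, the window, the promoter distance and the E18.5 libraries used. The single-library result of 1 list, endocrine transcription factors, is not reported here.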

Additional observations from a re-analysis of the deposited data

How the results depend on the processing

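The number of members was 287 to 346 and that of their genes 470 to 562 over 6 alternatives. Both lowest values came from the limit at the 20th percentile of score. That limit was applied before peaks were joined, so it also turned some shared sites into single-library ones. The lower RE1 share against sites of both E13.5 libraries and no E18.5 library (-23.8 points in 200-bp windows to -13.5 points at or above the 20th percentile of score), its excess over E18.5-only sites (29.0 to 61.9 points) and the odds ratio over quintiles of rank in E13.5 A (0.346 to 0.47) kept their direction and side of the threshold in all 9 alternatives of each. The E13.5 A against E13.5 B difference in RE1 share (value -10.9, adjusted p = 0.0599) passed with gaps of up to 500 bp joined (-11.1, adjusted p = 0.047, Fisher exact test) and at or above the 20th percentile of score (-14.6, adjusted p = 0.016, Fisher exact test), and ranged from -11.6 to -10.9 when an E18.5 library was left out. It was smaller with at most 6 (-8.33) or 4 mismatches (-7.11) and in 200-bp windows (-5.04, adjusted p = 0.376, Fisher exact test). The odds ratio over quintiles of rank in E13.5 B lost its call at or above the 20th percentile of score (0.976) and with 6 mismatches (0.657). The difference in promoter-proximal share turned from -1.39 to 0.604 points at or above the 20th percentile, neither past the threshold. The GC difference passed in 200-bp windows (-1.19, permutation p = 0.0187) and ranged from -1.09 to -0.646 without an E18.5 library. The cause of these changes was not tested. The wider RE1 placement in E13.5 B, a difference in means of 20 bp, was 8.4 bp among peaks of rank below 40.

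No paired analysis was possible because the letters of E13.5 and E18.5 libraries name different embryos and the results come from tests over sites. Leaving out an E13.5 library was not run, since the rule needs both. Without read depth or scores below the calling limit, a site that a list lacks cannot be told from a site just under that limit.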
